A study of Mus musculus with 24 samples.

Results

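CC chemokine receptors are G protein-coupled receptors that read gradients of secreted CC chemokines and steer the cell that carries them. On regulatory T (Treg) cells, the Foxp3+ CD4 T cells that restrain immune responses, they help to set the tissue in which suppression takes place, and effector Treg cells exchange lymph node homing receptors for receptors of inflamed, barrier and mucosal tissue. Ligand binding activates an inhibitory G protein, whose subunits feed lipid kinases and small GTPases of the cytoskeleton, after which receptor kinases, arrestins and RGS proteins end the signal. The genes followed here were Ccr2, Ccr3, Ccr4, Ccr6, Ccr8, Ccr9 and Ccr10, the entries of the deposited expression table whose Ensembl identifiers map to these receptor symbols. They are 7 of the 17464 genes listed. Other CC receptors were not analysed here.

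RNA-seq was performed on 3 Treg subsets that were sorted from the spleens of the same 8 wild-type C57BL/6JRccHsd mice, 4 aged 2 months (young) and 4 aged 26 months (old), none of them given a treatment according to the labels. The subsets were resting Treg cells (rTreg; CD62L+ CD44-), activated Treg cells (aTreg; CD62L- CD44+) and cells with the inhibitory receptor KLRG1 on their surface (kTreg; KLRG1+), which gave 6 groups of 4 libraries and 24 libraries in all. The gates use surface proteins and not FOXP3, the study used mice of both sexes, and the sex of each mouse is not given in the sources used here. Replicate number 1 to 4 names the mouse within its age. Values are normalized units, which are reads per gene divided by a size factor of the library, and 1 read was worth 0.694 to 1.32 units.

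Depth and identity of the libraries were checked first. The libraries held 15045747 to 29521942 reads on the listed genes. Klrg1 lay between 16559 and 41561 units in the 8 kTreg libraries and at most at 357 in the other 16. Foxp3 was read in every library, from 13151 to 37793 units, with the exception of the old aTreg library of mouse 2 at 5079. The young kTreg library of mouse 4 listed 4913 genes at 0, against at most 2756 in any other library. The libraries of young mouse 2 carried B cell and macrophage markers, with a summed macrophage and monocyte level of 20888 in its kTreg library against 351 to 965 in the other 3 young kTreg libraries. The 4 old rTreg libraries carried all 8 basophil and mast cell markers on the list, which summed to 5154, 9950.5, 14511 and 8167 units in mice 1 to 4 and to at most 751 in any other library; their 8 monocyte and macrophage markers summed to 10272 to 26572. The old rTreg group consists of such libraries, so results on it have no version without them. For the other libraries, some but not all of the calls that their removal changed are given beside the result.

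**Figure D1:**
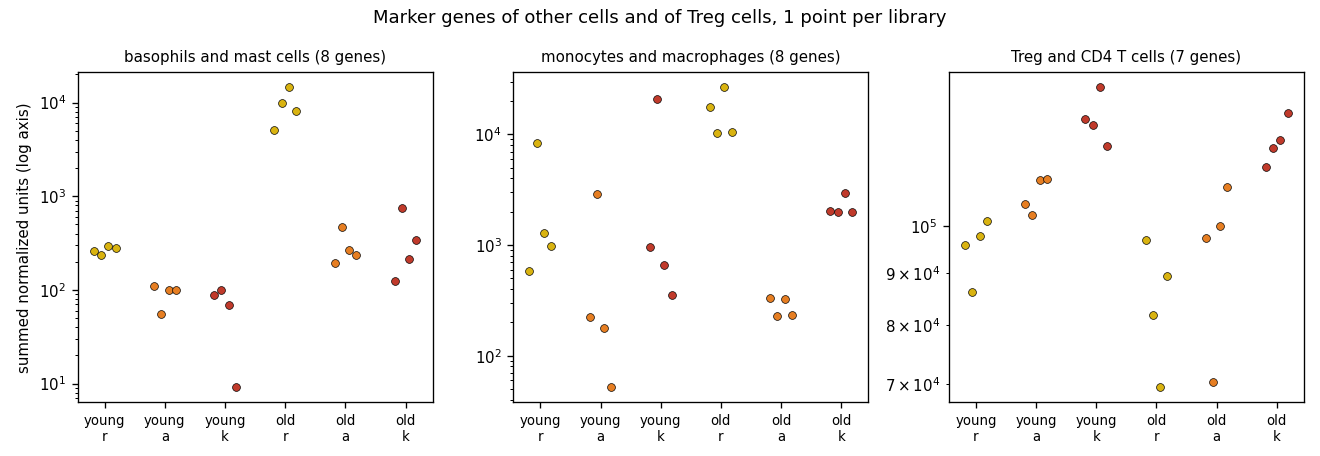
Summed normalized units of marker genes in each of the 24 libraries (log axis), 1 point per library, for basophils and mast cells, monocytes and macrophages, and Treg and CD4 T cells, in the 6 groups on the horizontal axis (r, rTreg; a, aTreg; k, kTreg). The 4 old rTreg libraries sit between 5154 and 14511 for basophil and mast cell markers, above the other 20, and the young kTreg library of mouse 2 reaches 20888 for monocyte and macrophage markers.

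Ccr2, Ccr3, Ccr4, Ccr8 and Ccr9 lie on mouse chromosome 9 (GRCm39, GENCODE M39). Ccr3 (ENSMUSG00000035448) spans 123822009 to 123831726 and Ccr2 (ENSMUSG00000049103) spans 123901982 to 123913594, both on the plus strand and 70.3 kb apart. Ccr9 (ENSMUSG00000029530; 123507181 to 123613395, plus strand) ends 208.6 kb before Ccr3. Ccr8 (ENSMUSG00000042262; 119921180 to 119924263, plus strand) and Ccr4 (ENSMUSG00000047898; 114319384 to 114333984, minus strand) lie further away on the same chromosome. Ccr10 (ENSMUSG00000044052) lies on chromosome 11, from 101063823 to 101066270 on the minus strand and inside Cntnap1, with which it shares no exon bases. Ccr6 (ENSMUSG00000040899) lies on chromosome 17, from 8454869 to 8475973 on the plus strand, and 46.7% of its exon bases are also exon of the antisense lncRNA Gm33799. The library kit does not mark strand, so reads over those shared bases cannot be assigned to one of the pair. In Ccr9, 18.3% of the exon bases are shared with the antisense lncRNA Gm17021. The coding sequences of the 7 receptors were 56.0% to 66.6% identical over the 21 pairs, the closest pair being Ccr2 and Ccr3, and no pair shared a run of 31 bases.

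The 250 bases before the annotated start (RefSeq, GRCm38.p6) are shown for Ccr3, which had the widest gap between kTreg and aTreg cells, and for Ccr2 and Ccr8, which had the highest levels per length in young kTreg cells. Capitals mark matches on either strand to the 6-mer AGATAA, to its variant AGATAG, to the 6-mer TGATAA or to its variant TGATAG, which are letters that GATA transcription factors bind. The windows are chr9:124021721-124021970 (Ccr3), chr9:124101933-124102182 (Ccr2) and chr9:120091883-120092132 (Ccr8), each on the plus strand.
Ccr3: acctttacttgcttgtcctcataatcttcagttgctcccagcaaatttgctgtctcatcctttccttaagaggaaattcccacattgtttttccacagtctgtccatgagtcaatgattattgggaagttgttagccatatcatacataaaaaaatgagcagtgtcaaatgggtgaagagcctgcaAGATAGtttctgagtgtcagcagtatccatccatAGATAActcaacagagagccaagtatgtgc
Ccr2: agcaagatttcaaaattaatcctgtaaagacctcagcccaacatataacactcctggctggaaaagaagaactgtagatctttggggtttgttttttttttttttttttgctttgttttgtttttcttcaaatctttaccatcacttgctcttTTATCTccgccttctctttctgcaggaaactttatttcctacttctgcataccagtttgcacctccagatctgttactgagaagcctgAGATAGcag
Ccr8: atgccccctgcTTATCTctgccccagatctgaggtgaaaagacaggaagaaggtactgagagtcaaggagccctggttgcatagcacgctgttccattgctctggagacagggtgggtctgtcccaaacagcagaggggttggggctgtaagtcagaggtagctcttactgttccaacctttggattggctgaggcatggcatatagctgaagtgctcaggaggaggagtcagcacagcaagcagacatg
The Ccr3 window holds 2 of these 6-mers, at -64 and -30 from the start, and the Ccr2 window holds 2, at -97 and -9. The Ccr8 window holds 1, at -239. Among 7 windows of 6 member genes, 5 hold at least 1, as do 26.5% of the 32851 mouse promoter windows of this length. A match is a run of letters and was not tested for binding.

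Per length of annotated exon, Ccr8 was the most abundant member in each of the 6 group means, counted as reads per kilobase of exon, scaled by the reads on listed genes (RPKM). The length joins all annotated exons of a gene, 1466 bases for Ccr8 and 6765 for Ccr2. In normalized units, without length, mean Ccr2 exceeded mean Ccr8 in young kTreg (8113 against 5980), old rTreg (2793 against 1308) and old aTreg cells (4675 against 3664). In the other groups mean Ccr8 was the higher. Ccr8 encodes the receptor for CCL1 and is a known surface marker of effector Treg cells in tissue and tumours. Its mean level was 28.8 ± 13.4 RPKM (SD, n = 4) in young rTreg, 91.7 ± 24.8 in young aTreg and 204 ± 80.4 in young kTreg cells, and 44.4 ± 11.7, 123 ± 19.6 and 184 ± 20.7 in the old groups in the same order. Ccr2 followed in young kTreg cells with 60.1 ± 8.32 RPKM, and Ccr6 followed in old aTreg cells with 73.1 ± 39.3 RPKM. Ccr9 had the lowest mean level in young kTreg cells, 0.866 ± 0.803 RPKM, and Ccr3 the lowest in the old aTreg group, 0.387 ± 0.286 RPKM. Summed over the 7 receptors, the level was 375 ± 76.8 RPKM in young kTreg, 161 ± 18.7 in young aTreg and 52.9 ± 21.4 in young rTreg libraries. In old mice the sum was 298 ± 29.0 RPKM in kTreg, 281 ± 53.0 in aTreg and 101 ± 16.7 in rTreg libraries. The order of the subsets was the same at both ages, but the ranges of old kTreg libraries (262 to 333 RPKM) and old aTreg libraries (241 to 358 RPKM) overlapped. In these bulk libraries, fewer cells that carry a transcript and less of it per cell cannot be told apart.

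**Figure D2:**
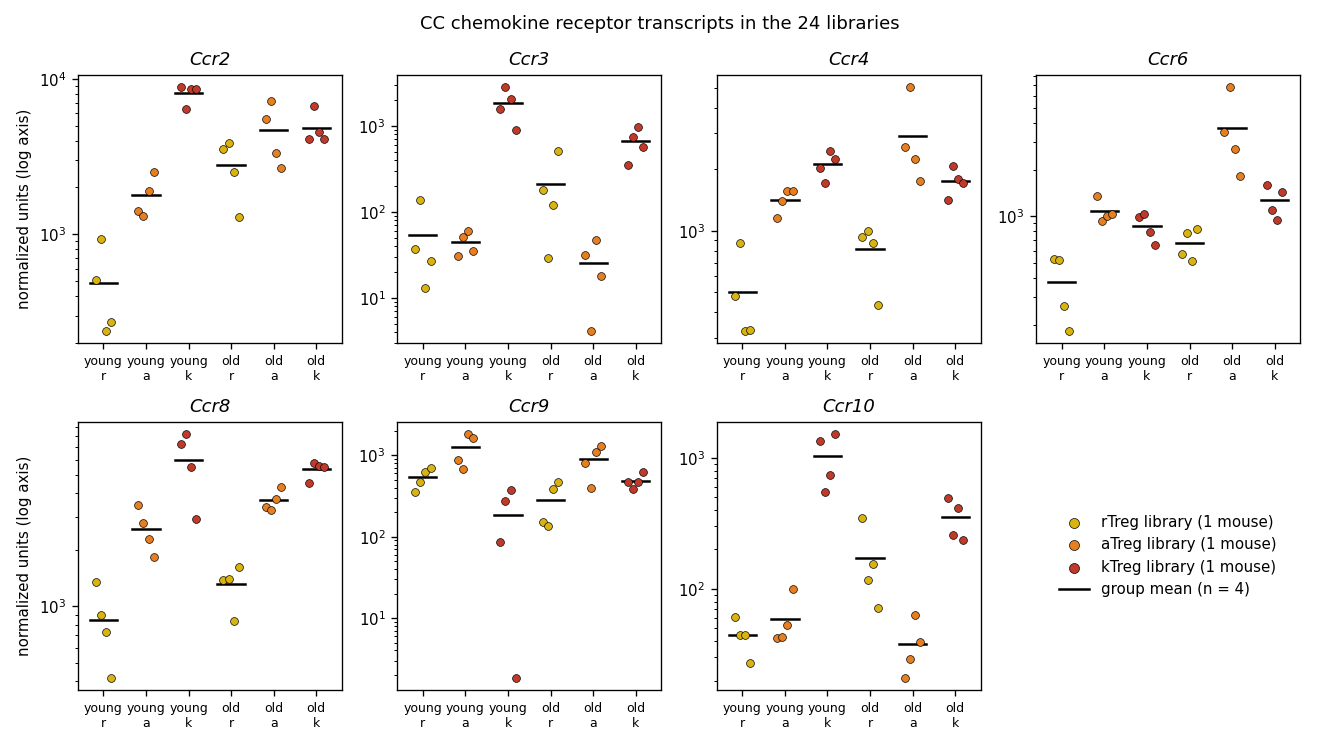
Normalized units of each CC chemokine receptor transcript (vertical log axis, own scale per panel) in the 24 libraries, 1 point per library, with the mean of 4 libraries as a bar; groups on the horizontal axis are young and old rTreg (r), aTreg (a) and kTreg (k) cells. All kTreg libraries lie above all aTreg libraries of their age for Ccr3 and Ccr10, and the young kTreg library of mouse 4 lies at 1.83 units for Ccr9.

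The main comparison asked how kTreg cells differed from aTreg cells in these receptors. Averaged over the ages, 4 members were higher in kTreg cells (Ccr2, Ccr3, Ccr8 and Ccr10), where 4.13% of all 16630 genes tested were higher, and 2 were lower (Ccr6 and Ccr9), where 3.26% of all genes were lower. A gene was counted where it passed both an adjusted p of 0.05 in limma and a threshold of 1.5-fold. Ccr4 was not among them. All 7 members passed the filter on low values. Monocyte and macrophage markers also differed between these subsets. They summed to 1993 to 2932 units in old kTreg against 230 to 329.8 in old aTreg libraries, and, apart from mouse 2, to 351 to 965 in young kTreg against 52 to 223 in young aTreg libraries. Markers of group 2 innate lymphoid cells (5 genes) summed to 2373 to 2980 units in young kTreg against 1542 to 2007 in young aTreg libraries. In old mice they summed to 2560 to 4085 against 734 to 2085. No other list of non-Treg cells was apart at both ages. Conventional dendritic cell and CD8 T cell markers were higher in old kTreg libraries without overlap, and plasmacytoid dendritic cell markers lower in young ones. The part of all these cells in the differences below was not tested.

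Ccr3, the receptor for eotaxins and best known from eosinophils, showed the widest gap between kTreg and aTreg cells in the family. In young mice its values in mice 1 to 4 were 1581, 2807, 2026 and 879 units in kTreg cells. The aTreg libraries of the same mice held 31.2, 50.8, 59.5 and 35.5 units. Every young kTreg library lay above every young aTreg library. In old mice Ccr3 stood at 351, 742, 971 and 564 units in kTreg cells. The old aTreg libraries held 31.8, 4.13, 47.2 and 18.2 units, again with no overlap. Ccr3 was 34.4-fold higher in kTreg than in aTreg cells over both ages, a log2 fold change of 5.11 ± 0.53 (SE; limma adjusted p = 1.61e-06), in 8 of 8 mice. The log2 fold change was 5.26 ± 0.76 in young mice (limma adjusted p = 0.000132) and 4.95 ± 0.76 in old mice (limma adjusted p = 0.00111). The highest Ccr3 value was in the young kTreg library of mouse 2, which also had the highest monocyte and macrophage sum, and with that mouse left out Ccr3 stood at 5.09 on the log2 scale in young mice (limma adjusted p = 0.00104). Of 7 eosinophil markers 4 are listed, and they summed to 0 to 286 units in the young kTreg libraries, with the 286 in mouse 2, and to 11.7 to 48.6 units in the old ones.

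Ccr10, the receptor for the epithelial chemokines CCL27 and CCL28 and a homing receptor for skin and mucosa, was the other member with a wide gap at both ages. Its values were 1339, 551, 743 and 1524 units in young kTreg and 42.3, 42.7, 53.0 and 99.6 in young aTreg libraries. In old mice they were 496, 256, 417 and 236 units in kTreg and 20.9, 28.9, 63.7 and 39 in aTreg libraries. No kTreg library overlapped the aTreg libraries of its age. Ccr10 was 12.5-fold higher in kTreg cells, a log2 fold change of 3.65 ± 0.33 (limma adjusted p = 2.7e-07), in 8 of 8 mice. Within ages the log2 fold change was 4.08 ± 0.46 in young mice (limma adjusted p = 1.01e-05) and 3.22 ± 0.46 in old mice (limma adjusted p = 0.000702). Without young mouse 2 the value in young mice was 4.22 (limma adjusted p = 0.000134). All 4 old kTreg libraries lay below all 4 young kTreg libraries, yet the change with age in kTreg cells was −1.51 ± 0.46 on the log2 scale and did not pass (limma adjusted p = 0.112).

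Ccr2, the receptor for CCL2 that brings monocytes and effector T cells to inflamed tissue, was higher in kTreg cells averaged over the ages, by a log2 fold change of 1.18 ± 0.27 (limma adjusted p = 0.00625). It was higher in 6 of 8 mice. The young kTreg libraries held 8844, 6346, 8612 and 8649.9 units and the young aTreg libraries 1415, 1311, 1897 and 2515. In old mice the kTreg libraries held 4069, 6689.6, 4534 and 4089 units and the aTreg libraries 5479.5, 7233, 3336 and 2651. The groups were apart in young mice and overlapped in old mice. The log2 fold change was 2.22 ± 0.39 in young mice (limma adjusted p = 0.000826) and 0.13 ± 0.39 in old mice (limma adjusted p = 0.946). Without mouse 2, the young mouse with the highest monocyte and macrophage sums, the value in young mice was 2.202 (limma adjusted p = 0.0022). The difference between the ages was −2.09 ± 0.55 on the log2 scale and did not pass in limma (adjusted p = 0.174), whereas DESeq2 on the recovered reads gave −2.13 (adjusted p = 0.0113).

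Ccr8 was 1.8-fold higher in kTreg cells, a log2 fold change of 0.85 ± 0.22 (limma adjusted p = 0.0124), and higher in 8 of 8 mice. Young kTreg libraries held 7249.6, 8262, 5502 and 2909 units, and the young aTreg libraries of the same mice 3455, 2757, 2274 and 1834. Old kTreg libraries held 4538, 5804, 5574 and 5504 units and old aTreg libraries 3385, 3241, 3733 and 4297. Every kTreg library lay above the aTreg library of its own mouse, but in young mice the ranges overlapped through mouse 4. The log2 fold change was 1.15 ± 0.31 in young mice (limma adjusted p = 0.0234) and 0.55 ± 0.31 in old mice (limma adjusted p = 0.4). The call over both ages was lost without all libraries of young mouse 3 (log2 fold change 0.83, limma adjusted p = 0.0531) or of old mouse 2 (0.80, limma adjusted p = 0.0617). The call in young mice alone was lost without the aTreg library of mouse 3 or 4 or the kTreg library of mouse 1 or 2, at 0.96 to 1.10 on the log2 scale, and in a limma model of the compared groups alone (adjusted p = 0.106).

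Ccr6, the receptor for CCL20 found on mucosal and interleukin-17-linked lymphocytes, was lower in kTreg than in aTreg cells, by a log2 fold change of −0.87 ± 0.24 (limma adjusted p = 0.0196), and was lower in 7 of 8 mice. Young aTreg libraries held 1341, 936, 1009.5 and 1032 units and young kTreg libraries 982, 1029, 789 and 655. Old aTreg libraries held 3509.8, 6807, 2731 and 1813 units and old kTreg libraries 1579, 1100.2, 945 and 1439. The groups overlapped in young mice and were apart in old mice. The log2 fold change was −0.33 ± 0.34 in young mice (limma adjusted p = 0.594) and −1.41 ± 0.34 in old mice (limma adjusted p = 0.0299). The highest value, 6807 units, was in the old aTreg library of mouse 2, the one with the lowest Foxp3. Without that library and the young kTreg library of mouse 4 the log2 fold change over both ages was −0.63 and no longer passed (limma adjusted p = 0.0595). It was also lost without all libraries of young mouse 1 (−0.85), young mouse 3 (−0.87) or old mouse 2 (−0.67), with limma adjusted p of 0.0508, 0.0625 and 0.098. In old mice alone, leaving out the aTreg library of mouse 2 gave −1.06 (limma adjusted p = 0.167), and the call was also lost without the old aTreg library of mouse 1 or the old kTreg library of mouse 2, 3 or 4.

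Ccr9, the receptor for CCL25 that directs T cells to the small intestine and thymus, was lower in kTreg cells of 8 of 8 mice, at −2.40 ± 0.66 on the log2 scale (limma adjusted p = 0.0189). Young kTreg libraries held 85.0, 273, 369.8 and 1.83 units and young aTreg libraries 878, 686, 1839 and 1639. Old kTreg libraries held 475, 384, 470.3 and 626 units and old aTreg libraries 795, 392, 1110.4 and 1307. The groups were apart in young mice and overlapped in old mice through mouse 2. The log2 fold change was −4.04 ± 0.94 in young mice (limma adjusted p = 0.00843) and −0.77 ± 0.94 in old mice (limma adjusted p = 0.803). The value of 1.83 units in the young kTreg library of mouse 4 is 2 reads. Without this library the log2 fold change was −1.63 over both ages (limma adjusted p = 0.00204) and −2.50 in young mice (limma adjusted p = 0.0025). In a limma model of the compared groups alone, the −4.04 in young mice did not pass (adjusted p = 0.174), and without young mouse 2 it was −4.95 (limma adjusted p = 0.00798). The call over both ages was lost without all libraries of old mouse 1, 3 or 4, at log2 fold changes of −2.41, −2.33 and −2.36 (limma adjusted p = 0.0578, 0.0563 and 0.0554).

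Ccr4, the receptor for CCL17 and CCL22 carried by skin-homing and activated Treg cells, did not pass between kTreg and aTreg cells, with a log2 fold change of −0.03 ± 0.22 (95% interval −0.49 to 0.43; limma adjusted p = 0.957). Young kTreg libraries held 2039.9, 1715, 2458 and 2249 units against 1156, 1394, 1565 and 1573 in young aTreg libraries. Old kTreg libraries held 1409, 2069, 1793 and 1716 units against 2579, 5062, 2237 and 1749. The kTreg libraries were the higher ones in young mice without overlap, and the old groups overlapped. Neither age passed alone, with limma adjusted p = 0.286 in young and 0.329 in old mice.

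Within single ages, 4 members were higher in young kTreg than young aTreg cells (3.46% of all genes) and 1 was lower (3.49%). In old mice 2 members, Ccr3 and Ccr10, were higher in kTreg cells (1.33% of all genes) and 1, Ccr6, was lower (0.866%). The difference between the ages passed for 0 of 7 members, where 0.156% of all genes passed in either direction in limma. At an unadjusted p below 0.05 it passed for 4 members, where 7.53% of all genes did, in edgeR for 0 (0.186%) and in DESeq2 for 1, Ccr2 (0.806%).

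**Figure D3:**
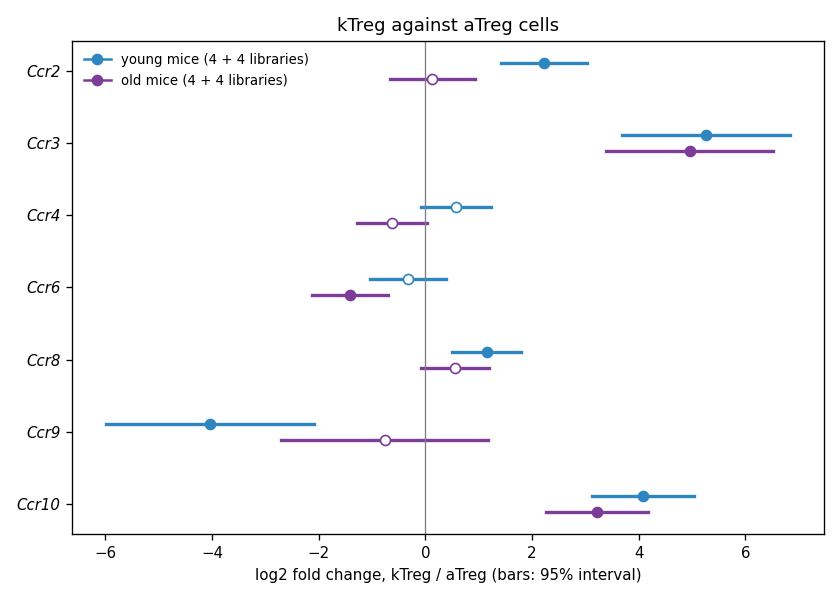
Log2 fold change of each receptor transcript in kTreg against aTreg cells (horizontal axis), in young and in old mice, with 95% intervals from limma; filled points passed the adjusted p of 0.05 and the 1.5-fold threshold, open points did not. Ccr3 and Ccr10 lie far to the right at both ages, and the Ccr2 point moves from 2.22 in young to 0.13 in old mice.

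Against rTreg cells, the subset with the lowest summed level, 6 of 7 members were higher in kTreg cells averaged over the ages (9.37% of all genes). The log2 fold changes ran from 1.12 ± 0.24 for Ccr6 (limma adjusted p = 0.0016) to 3.82 ± 0.53 for Ccr3 (limma adjusted p = 1.48e-05). Ccr9 stood at −0.96 ± 0.66 and did not pass (limma adjusted p = 0.323). Each of the 6 was higher in 8 of 8 mice. In aTreg cells 4 of 7 members, Ccr2, Ccr4, Ccr6 and Ccr8, were higher than in rTreg cells (5.23% of all genes), each in 8 of 8 mice. They were 2.63, 3.26, 3.96 and 3.04-fold higher (limma adjusted p = 0.00145, 2.4e-05, 1.08e-05 and 3.76e-05), with standard errors of 0.22 to 0.27 on the log2 scale. Ccr3 stood at −1.28 ± 0.53 (limma adjusted p = 0.149; edgeR −1.64, adjusted p = 0.0425) and Ccr10 at −0.82 ± 0.33 (limma adjusted p = 0.131) in aTreg against rTreg cells. Ccr9 was at 2.72-fold (standard error 0.66 on the log2 scale, limma adjusted p = 0.203), and without the young kTreg library of mouse 4, which shares the estimate of the spread, the same fold passed (limma adjusted p = 0.00354).

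The comparisons with rTreg cells rest in part on the old rTreg libraries with basophil and macrophage markers, and in young mice alone they were as follows. In young kTreg cells 6 members were higher than in young rTreg cells (8.24% of all genes), and Ccr9 was lower (7.56%). The log2 fold changes in young mice were 4.26 ± 0.39 for Ccr2 (limma adjusted p = 7.81e-08), 5.47 ± 0.76 for Ccr3 (1.77e-05) and 4.46 ± 0.46 for Ccr10 (4.39e-07). For Ccr8, Ccr4 and Ccr6 they were 2.84 ± 0.31, 2.19 ± 0.31 and 1.32 ± 0.34 (limma adjusted p = 8.78e-07, 2.61e-05 and 0.00843). The young rTreg libraries that these values are set against held 513, 927, 239 and 273 units of Ccr2, 37.0, 136, 13.2 and 27.1 of Ccr3, and 60.6, 44.3, 44.8 and 27.1 of Ccr10. The lower Ccr9 had a log2 fold change of −2.88 ± 0.94 (limma adjusted p = 0.0345) and did not pass without the young kTreg library of mouse 4 (−1.34, limma adjusted p = 0.0604). It was also lost without any single young rTreg library (−3.07 to −2.74, limma adjusted p = 0.0506 to 0.0856), in edgeR (−1.56, adjusted p = 0.13), in DESeq2 (−1.56, adjusted p = 0.118) and in a limma model of the compared groups alone (adjusted p = 0.229). In young aTreg cells Ccr2, Ccr4, Ccr6 and Ccr8, 4 members, were higher than in young rTreg cells (2.71% of all genes), with log2 fold changes of 1.62 to 2.04. Without all libraries of young mouse 3, Ccr2 (1.72), Ccr4 (1.398) and Ccr6 (1.56) did not pass in young aTreg against rTreg cells (limma adjusted p = 0.0713, 0.0776 and 0.0839), nor did Ccr6 in young kTreg against rTreg cells (1.23, limma adjusted p = 0.0680; 0.0510 with the compared groups alone).

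In old mice 2 members, Ccr4 and Ccr8, were higher in kTreg than in rTreg cells (5.77% of all genes), at 1.16 ± 0.31 and 2.07 ± 0.31 on the log2 scale (limma adjusted p = 0.0197 and 0.000165). Ccr4 did not pass without the old rTreg library of mouse 4 (0.89, limma adjusted p = 0.0779) or the old kTreg library of mouse 2 (1.08, limma adjusted p = 0.0657). Ccr3 stood at 2.18 ± 0.76 (limma adjusted p = 0.0696) and passed without the old rTreg library of mouse 4 (2.82, limma adjusted p = 0.0228). It also passed without the young kTreg library of mouse 4 or the old aTreg library of mouse 2 (limma adjusted p = 0.0445 and 0.0461). In aTreg cells 3 members, Ccr4, Ccr6 and Ccr8, were higher than in rTreg cells (4.82% of all genes), and 2, Ccr3 and Ccr10, were lower (3.78%). The old rTreg libraries held 181, 29.1, 119 and 511 units of Ccr3 and 344, 118, 155 and 70.9 of Ccr10. The old aTreg values given above overlapped them for Ccr3 and lay below them for Ccr10. The log2 fold changes of aTreg against rTreg cells in old mice were −2.77 ± 0.76 for Ccr3 (limma adjusted p = 0.0218) and −2.02 ± 0.46 for Ccr10 (limma adjusted p = 0.00722). For Ccr3 the call was lost without the old rTreg library of mouse 4 (−2.13, limma adjusted p = 0.0884) or the old aTreg library of mouse 2 (−2.12, limma adjusted p = 0.095). For Ccr10 it was lost without all libraries of old mouse 1 (−1.37, limma adjusted p = 0.0933). Neither call held in a limma model of the compared groups alone (adjusted p = 0.124 for Ccr3 and 0.0641 for Ccr10).

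Age was compared within each subset. In rTreg cells 2 of 7 members were higher in old mice, Ccr2 and Ccr10, where 4.12% of all genes were higher. The old rTreg libraries held 3519.7, 3853, 2513 and 1286 units of Ccr2, all above the young values of 239 to 927, and the log2 fold change was 2.61 ± 0.39 (limma adjusted p = 0.000195). For Ccr10 it was 1.75 ± 0.46 (limma adjusted p = 0.0242), again with all old values above all young ones. The call for Ccr10 was lost without the young rTreg library of mouse 3 (1.77, limma adjusted p = 0.0625) or mouse 4 (1.54, limma adjusted p = 0.0795) or the old rTreg library of mouse 1 (1.34, limma adjusted p = 0.0776), and with the compared groups alone (limma adjusted p = 0.118). Beside these values, basophil and mast cell markers summed to 236 to 298 units in the young and 5154 to 14511 in the old rTreg libraries, and monocyte and macrophage markers to 584 to 8294 and 10272 to 26572. In old mice 1 to 4, in this order, the rTreg libraries held 344, 118, 155 and 70.9 units of Ccr10. Their basophil and mast cell sums were 5154, 9950.5, 14511 and 8167 units. Their monocyte and macrophage sums were 17733, 10272, 26572 and 10541 units. The part of basophils, mast cells, monocytes and macrophages in the change was not tested. The remaining members stood at 0.70 to 1.84 on the log2 scale for Ccr3, Ccr4, Ccr6 and Ccr8 and at −1.06 for Ccr9, with limma adjusted p from 0.094 to 0.551. Ccr3 passed without the old rTreg library of mouse 2 (2.56, limma adjusted p = 0.0373), and Ccr4 without the young rTreg library of mouse 2 (1.06, limma adjusted p = 0.0326).

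In aTreg cells 1 of 7 members, Ccr6, was higher in old mice, where 1.85% of all genes were higher. All old aTreg libraries lay above all young ones, and the log2 fold change was 1.62 ± 0.34 (limma adjusted p = 0.00817). Without all libraries of old mouse 2 it was 1.28 and did not pass (limma adjusted p = 0.0625). Ccr2 stood at 1.33 ± 0.39 (limma adjusted p = 0.0678) and Ccr4 at 0.92 ± 0.31 (limma adjusted p = 0.139), and DESeq2 on the recovered reads called both (adjusted p = 0.00657 and 0.0249). All old aTreg libraries lay above all young ones for these genes too. The highest values, 7233 units of Ccr2 and 5062 of Ccr4, were in the old aTreg library of mouse 2, the one with the lowest Foxp3. Without that library Ccr2 stood at 1.08 and Ccr4 at 0.61 on the log2 scale, and neither passed in limma. In limma, Ccr2 passed without the young rTreg library of mouse 2 (adjusted p = 0.0323) or the young kTreg library of mouse 4 (adjusted p = 0.0464). Basophil and mast cell markers summed to at most 465 units and monocyte and macrophage markers to at most 329.8 in the old aTreg libraries.

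In kTreg cells 0 of 7 members passed between the ages in limma, where 1.26% of all genes passed in either direction. At an unadjusted p below 0.05 it was 2 members, Ccr9 and Ccr10, where 11.4% of all genes passed, in edgeR 0 (0.655% of all genes) and in DESeq2 1 (2.56%). The last was Ccr10 (log2 fold change −1.56, DESeq2 adjusted p = 0.0221). Ccr2 stood at −0.76 ± 0.39 and Ccr3 at −1.45 ± 0.76 on the log2 scale (limma adjusted p = 0.345 and 0.358). Ccr8 was nearly level, at −0.06 ± 0.31 with a 95% interval of −0.70 to 0.58. Ccr9 stood at 2.77 ± 0.94 (limma adjusted p = 0.158), and at 1.23 without the young kTreg library of mouse 4 (limma adjusted p = 0.3).

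**Figure D4:**
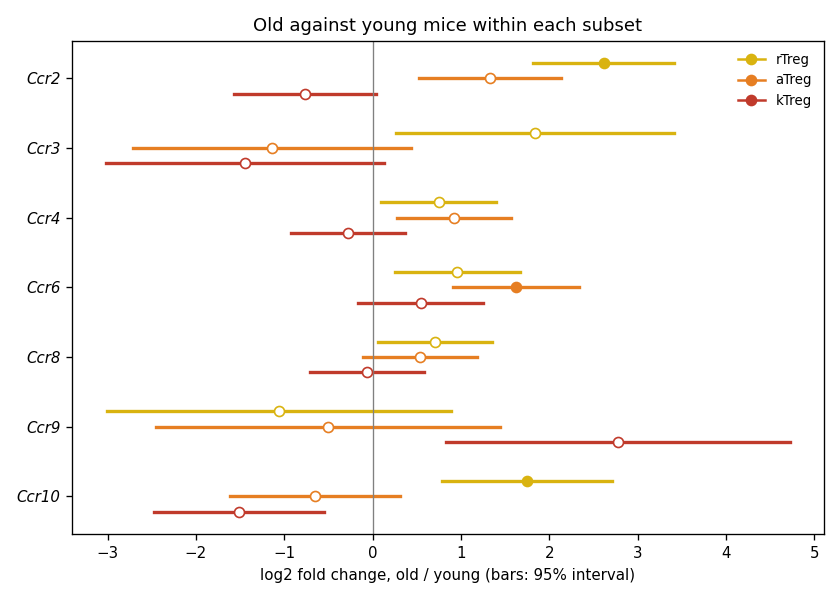
Log2 fold change of each receptor transcript in old against young mice (horizontal axis) in rTreg, aTreg and kTreg cells, with 95% intervals from limma; filled points passed the adjusted p of 0.05 and the 1.5-fold threshold, open points did not. Ccr2 and Ccr10 lie to the right of 0 in rTreg cells (2.61 and 1.75) and to the left in kTreg cells (−0.76 and −1.51).

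The gap between kTreg and rTreg cells narrowed with age for 2 of 7 members, Ccr2 and Ccr10, where 2.03% of all genes had a lower kTreg to rTreg ratio in old mice. The change of the log2 fold change from young to old was −3.38 ± 0.55 for Ccr2 (limma adjusted p = 0.00159) and −3.26 ± 0.66 for Ccr10 (limma adjusted p = 0.00751). For Ccr2 the log2 fold change of kTreg against rTreg cells was 4.26 in young and 0.88 in old mice, and for Ccr10 4.46 and 1.20. Ccr3 stood at −3.28 ± 1.07 for the same difference (limma adjusted p = 0.101), and passed without the old rTreg library of mouse 2 (−4.01, limma adjusted p = 0.0245). It also passed without the young rTreg library of mouse 2 (−3.90, limma adjusted p = 0.0362). Without the young kTreg library of mouse 4 and the old aTreg library of mouse 2, 4 members passed, the others being Ccr3 (−3.59) and Ccr9 (2.29). Under that setting 4.8% of all genes passed in either direction. The old rTreg libraries that enter it are those with basophil markers. Between aTreg and rTreg cells the difference between the ages passed for 0 of 7 members in limma, where 1.56% of all genes passed in either direction. It passed for 3 at an unadjusted p below 0.05 (12.8% of all genes), for 0 in edgeR (1.04%) and for 1, Ccr10, in DESeq2 (3.75%).

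In the order of the 6 group means, Ccr3 and Ccr9 overlapped between neighbours at every step, and each of the other members had at least 1 pair of neighbours without overlap. The share of all genes with such a pair was not counted, so this is a description of the members only. For Ccr2 the order from low to high was young rTreg, young aTreg, old rTreg, old aTreg, old kTreg and young kTreg, and of these neighbours young rTreg and young aTreg differed (log2 difference 2.04, limma adjusted p = 0.00268). For Ccr6 the order ended with old kTreg and old aTreg, which differed by 1.41 on the log2 scale (limma adjusted p = 0.0299). No other neighbours in the order of any member passed, with limma adjusted p of 0.0696 or more.

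The genes whose pattern over the 24 libraries was most like that of a member were found by Pearson's r of log2 values, as a description of libraries that share mice, subsets and ages. Ccr3 was nearest to Sh3bp4 (r = 0.93), Snx9 (0.91) and Il1rl1 (0.91), the last of which encodes the interleukin-33 receptor ST2. For Ccr10, Il1rl1 (0.93) and Agpat4 (0.91) were among the nearest. Ccr2 was nearest to Ctla2b (0.95), Gna15 (0.95) and Zdhhc2 (0.94), Ccr8 to Penk (0.94), Zcchc18 (0.93) and Tmem154 (0.93), and Ccr4 to Cd44 (0.92), Asb2 (0.91) and Dkkl1 (0.90). Ccr6 was nearest to Hgsnat (0.93), Tspan31 (0.92) and Tnfsf14 (0.92), and Ccr9 to Pdss2 (0.90), Gpn1 (0.90) and Gatb (0.89). Among members, Ccr2 and Ccr4 (0.87) and Ccr3 and Ccr10 (0.85) were the most alike and Ccr9 and Ccr10 the least (−0.65).

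The wider pathway was read from lists of ligands, atypical receptors and signalling proteins in kTreg against aTreg cells. Of all 16630 genes tested, 4.13% were higher and 3.26% lower in kTreg cells. Of 17 CC ligands 8 were tested, with 1 higher and 1 lower in kTreg cells and a median log2 fold change of 0.50, beside −0.08 over all genes. The higher one was Ccl5, a chemokine of effector T cells, at 1.04 ± 0.22 (limma adjusted p = 0.00285). Its libraries lay between 1037 and 2017 units in young kTreg and between 357 and 662 in young aTreg cells. In old mice the ranges overlapped, at 2224 to 4151 units in kTreg and 1183 to 2383 in aTreg libraries. The lower one was Ccl20, the ligand of Ccr6, which held 58.1 to 98.7 units in young aTreg libraries and 0 to 5.23 in young kTreg libraries (limma adjusted p = 0.00121). In old mice it held 32 to 70.3 units in aTreg and 0 to 53.8 in kTreg libraries. Ccl1, the ligand of Ccr8, was chosen after its values were seen and was not called between kTreg and aTreg cells (−0.39 ± 0.54, limma adjusted p = 0.7). It was higher than in rTreg cells in kTreg cells (4.26 ± 0.54, limma adjusted p = 4.14e-06) and in aTreg cells (4.65 ± 0.54, limma adjusted p = 6.19e-06).

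Of 5 genes listed as atypical chemokine receptors, a class that mostly binds chemokines without G protein signalling, 3 were tested. Ccrl2 was higher in kTreg cells (1.48 ± 0.18, limma adjusted p = 1.24e-05), with 1174 to 1749 units in young kTreg and 418 to 634 in young aTreg libraries. Ackr3 was lower (limma adjusted p = 0.044) at levels of at most 85.7 units in any library. Of 7 G protein subunits 0 passed in limma, and of 6 receptor kinases and arrestins 0 passed. At an unadjusted p below 0.05 and without the fold threshold these were 3 and 1. The share of all genes under that looser rule was not counted, so whether these counts exceed it is not known. Of 8 RGS proteins, which switch G proteins off, Rgs16 was higher (0.67 ± 0.21, limma adjusted p = 0.0393) and Rgs10 lower (−0.74 ± 0.17, limma adjusted p = 0.00588). Of 16 enzymes and exchange factors between receptor and migration 3 were higher. These were Prex1, an exchange factor for Rac (0.74 ± 0.17, limma adjusted p = 0.00474), Plcb3, a phospholipase C (0.95 ± 0.23, limma adjusted p = 0.00836), and Pik3r6, a subunit of the G protein-coupled lipid kinase. Pik3r6 was listed at 0 in all 4 old aTreg libraries and held 7.21 to 30.4 units in old kTreg libraries (limma adjusted p = 0.000699 over both ages). In young mice it lay near the floor, with 0 to 4.78 units in kTreg and 0 to 0.807 in aTreg libraries. It held 46.8 to 80.5 units in the old rTreg libraries, those with basophil and macrophage markers. List medians for the other 5 lists ran from −0.30 to 0.15, beside −0.08 over all genes. Over all 6 lists limma called 9 genes, edgeR 10 and DESeq2 10. Of all genes, limma called 4.13% higher and 3.26% lower, edgeR called 7.28% and DESeq2 9.09% in either direction. No test of the lists against these shares was run.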

How the data were processed

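Libraries were made with the SMART-Seq v4 kit without molecular identifiers, sequenced in pairs of 150 bases and, per the labels' processing notes, handled with HISAT2 2.2.1, SAMtools 1.13, HTSeq 1.99.2 and DESeq2 1.44.0 on GRCm39; annotation release and strand setting are not given in the sources used here. The authors deposited a normalized signal per gene and library, the counts divided by a size factor. All values (100%) were whole multiples of 1 read within 0.001 reads, so reads could be recovered. Of 17464 identifiers 17353 matched GENCODE M39.

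Log2(value + 1) was fitted with limma 3.58.1 (R 4.3.3, mean-variance trend, 6 group means) on 16630 genes with at least 10 units in at least 4 libraries, with Benjamini-Hochberg adjustment over all of them; fold changes of low genes are understated on this scale. A gene was called at an adjusted p below 0.05 and a fold above 1.5. edgeR 4.0.16 and DESeq2 1.42.0 on the recovered reads were alternatives, as were other pseudocounts, filters and scalings, and leaving out libraries and mice. The fits were tested on simulated data. The 3 subsets of a mouse share its number, as the design text says they were sorted from the same mice: the median correlation of deviations from group means was 0.09 to 0.15 within mice and −0.05 to −0.03 between mice.

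The members, gene lists and tests were chosen with earlier results of these data known. All 7 members, the 3 pathway genes per list with the smallest p among those called between kTreg and aTreg cells, the 3 genes most like each member, and marker genes are named, except 1 gene that is not reported here. No sample was left out.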

Additional observations from a re-analysis of the deposited data

Results flagged for a closer look

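Among 42 groups of 4 libraries that were screened (7 receptors in 6 groups), 1 held a library far from the other 3. This was Ccr2 in young kTreg cells, where mouse 2 had 6346.5 units and the others 8612 to 8844. The gap was 0.907 of the range of the group, above Dixon's 95% critical value, and chance alone picks out about 1 group in 20. The same library had the highest monocyte and macrophage marker sum among kTreg libraries, 20888 units, and its part in the low value was not tested.

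The difference between kTreg and rTreg cells changed with age for Ccr2 by −3.38 on the log2 scale (limma adjusted p = 0.00159), from 4.26 in young to 0.88 in old mice. For Ccr10 the change was −3.26 (limma adjusted p = 0.00751), from 4.46 to 1.20. Both passed in every alternative run, at −3.87 to −3.07 for Ccr2 and −3.61 to −2.83 for Ccr10 when a library or a mouse was left out. All 4 old rTreg libraries, and none of the young ones, had basophil and mast cell marker sums of 5154 units or more, so the age of the rTreg cells and these markers cannot be told apart here.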

How the results depend on the processing

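Each of 105 receptor values was recomputed under 45 alternatives, 1 of which, leaving out the young kTreg library of mouse 4 and the old aTreg library of mouse 2, was chosen after seeing the data. For 55 values neither the call nor the sign changed. Between kTreg and rTreg cells 6 receptors were called in all of them. Between kTreg and aTreg cells the count of 6 became 4 to 6 with a library or mouse left out. In the other alternatives it was 5 to 6. The calls that were lost were among Ccr6, Ccr8 and Ccr9. With the mouse as a replicate block, the counts of receptors called were 6, 6 and 4 between subsets, 2, 1 and 0 between ages in rTreg, aTreg and kTreg cells, and 0, 2 and 0 for the differences between ages, the same as without it, and no call of a receptor changed.

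Other counts moved. In brackets are the shares of all genes that passed the same rule. At an unadjusted p below 0.05, 7 receptors in place of 4 passed in aTreg against rTreg cells (13.9%), 6 in place of 2 between ages in rTreg (15.1%), 3 in place of 1 in aTreg (8.15%) and 2 in place of 0 in kTreg cells (11.4%), and 4, 5 and 3 in place of 0, 2 and 0 for the differences between ages (kTreg against aTreg, 7.53%; kTreg against rTreg, 15%; aTreg against rTreg, 12.8%). DESeq2 called 3 receptors between ages in aTreg cells (4.21%), 1 in kTreg cells (2.56%), and 1 each for the differences between ages of kTreg against aTreg (0.806%) and aTreg against rTreg cells (3.75%). A model of the compared groups alone called 1 between ages in rTreg (2.87%) and 2 in aTreg cells (4.61%). Without both libraries that stand apart, 4 passed for the kTreg to rTreg difference between ages (4.8%). Leaving out a library or a mouse gave 1 to 3 between ages in rTreg, 0 to 3 in aTreg (0 without old mouse 2), and 0 to 1 for the aTreg to rTreg difference between ages. The causes were not tested.

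The sign changed for 8 values, none of them called. Ccr3 in young aTreg against rTreg cells was −0.27 in edgeR and −0.27 in DESeq2, and −0.42 to 0.82 with a library or mouse left out. Ccr4 in kTreg against aTreg cells was 0.11 without both libraries that stand apart and −0.13 to 0.13 otherwise, and its aTreg to rTreg difference between ages −0.13 and −0.14 to 0.39. With a library or mouse left out, Ccr2 in old kTreg against aTreg cells was −0.10 to 0.38, the kTreg to aTreg difference of Ccr3 between ages −1.05 to 0.20, Ccr8 between ages in kTreg cells −0.37 to 0.13, its aTreg to rTreg difference −0.43 to 0.13, and Ccr10 in young aTreg against rTreg cells −0.11 to 0.68. Low reads limit Ccr9 (2 in 1 library), Ccr3 (4 in 1 library) and Ccr10 (23 or more).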
